A study of Mus musculus with 5 samples.

Results

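ATRX occupancy was described at 41 imprinted genes, those listed for the mouse imprinted domains, among 21887 protein-coding genes. Every listed symbol was found in the RefSeq annotation of GRCm38.p6, 39 as protein-coding genes and 2, H19 and Meg3, as long noncoding RNAs. Occupied at its ends means here that a gene had a peak summit no farther than 1 kb from either end of its annotated span, and occupied in its body that a summit lay inside the span. Genes within 1 Mb of each other were joined into domains, which gave 17 domains with 1 kb added on each side, 10 of them with more than 1 listed gene. The data were ATRX ChIP-seq peak lists of cultured primary neurons from C57BL6/J mouse embryos, given lentivirus on day 5 in vitro. Of the groups at day 14 in vitro (DIV14), 1 carried TBC1D3, a gene of humans and other hominoids, 1 carried a construct labelled MICAL1-M1, after an enzyme that oxidises actin, and the control carried mCherry, a fluorescent protein. The remaining group, called young neurons in the study's design, carried mCherry and was taken at day 7 (DIV7). Each group was 1 library, so no value has a replicate error and nothing below is a test between conditions. Peaks of the library labelled MICAL1-M1 carry the name prefix M2, a mismatch that the files do not settle. Peak lists hold no RNA level, so the labelled cell type could not be checked against its markers. Of 5 neuronal marker genes, 1 had a gene-end summit with TBC1D3, 4 with MICAL1-M1, 3 with mCherry at DIV7 and 4 in the control, and of 3 microglial ones none had one in any list. Of 4 astrocyte markers 2 had one with TBC1D3, 1 with MICAL1-M1, 2 at DIV7 and 0 in the control. Of 3 oligodendrocyte markers it was 2 with TBC1D3, 0 with MICAL1-M1, 1 at DIV7 and 1 in the control, and of 3 fibroblast markers, among them the listed gene Dcn, 2 with TBC1D3, 0 with MICAL1-M1, 2 at DIV7 and 2 in the control.

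Imprinted genes are transcribed from the copy of 1 parent. The choice is written in the germ line as DNA methylation at imprinting control regions, and neighbouring imprinted genes often share such a region and so form a domain. CTCF, cohesin and the zinc finger protein ZFP57 bind at these regions, and ATRX, a chromatin remodeller that deposits histone H3.3 with DAXX, is known to act at imprinted genes of the mouse forebrain. Many imprinted genes set growth or are used in the brain, among them Ube3a, whose paternal copy is silent in neurons.

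The promoter sequences of 4 listed genes are shown. Gnas, Ube3a and Asb4 were taken for a peak of q at most 0.05 near the start, and Mest for a sequence motif. The sequences differ widely in CpG content. They run from 250 bases before to 50 bases after a RefSeq start (GRCm38.p6), 5′ to 3′, with each CG in capitals. The start of Gnas at chr2:174329756-174330055 (plus strand) was the place of the highest fold, that of Ube3a at chr7:59228500-59228799 (plus strand) had a peak with a q of at most 0.05 in 2 libraries, that of Asb4 at chr6:5383136-5383435 (plus strand) had 1 in the control, and the inner start of Mest at chr6:30737800-30738099 (plus strand) holds on its minus strand the hexamer TGCCGC, which ZFP57 recognises when methylated.
Gnas: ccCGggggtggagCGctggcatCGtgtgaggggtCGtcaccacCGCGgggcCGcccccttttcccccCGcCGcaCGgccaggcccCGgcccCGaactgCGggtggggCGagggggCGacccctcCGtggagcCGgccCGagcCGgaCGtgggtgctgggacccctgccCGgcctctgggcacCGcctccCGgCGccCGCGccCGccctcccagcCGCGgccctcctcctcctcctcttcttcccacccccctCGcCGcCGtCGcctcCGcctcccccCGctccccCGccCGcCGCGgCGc
Ube3a: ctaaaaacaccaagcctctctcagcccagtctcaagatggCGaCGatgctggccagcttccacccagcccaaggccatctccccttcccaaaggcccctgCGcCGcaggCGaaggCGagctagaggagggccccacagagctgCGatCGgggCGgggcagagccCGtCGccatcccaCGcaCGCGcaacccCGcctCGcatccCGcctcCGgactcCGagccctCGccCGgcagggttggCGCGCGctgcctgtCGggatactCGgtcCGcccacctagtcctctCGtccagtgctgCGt
Asb4: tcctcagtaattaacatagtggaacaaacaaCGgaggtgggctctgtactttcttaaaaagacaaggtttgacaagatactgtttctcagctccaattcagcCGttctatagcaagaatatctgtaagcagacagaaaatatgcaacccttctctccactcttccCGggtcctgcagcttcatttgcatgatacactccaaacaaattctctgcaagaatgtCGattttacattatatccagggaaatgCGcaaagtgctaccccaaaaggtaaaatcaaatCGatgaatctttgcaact
Mest: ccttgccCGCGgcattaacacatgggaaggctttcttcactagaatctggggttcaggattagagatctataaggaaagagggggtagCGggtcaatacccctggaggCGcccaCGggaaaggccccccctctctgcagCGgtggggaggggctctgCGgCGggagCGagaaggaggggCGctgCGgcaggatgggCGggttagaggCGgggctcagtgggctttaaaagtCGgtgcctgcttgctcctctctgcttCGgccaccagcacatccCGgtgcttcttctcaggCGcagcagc
Gnas has 40 CG in these 300 bases, Ube3a 29, Mest 17 and Asb4 6.

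The lists held 199059 peaks for TBC1D3, 141387 for MICAL1-M1, 213982 for mCherry at DIV7 and 96670 for the control. All reach an uncorrected p of about 0.05. A q of at most 0.05 was met by 0.166% of the peaks of TBC1D3, 0.442% of MICAL1-M1, 0.194% of mCherry at DIV7 and 4.18% of the control on the assembled chromosomes. The fold and p of a peak give back a whole fragment pileup at the summit and a local background, and the most frequent background was 1.22 fragments in TBC1D3, 2.61 in MICAL1-M1, 1.28 in mCherry at DIV7 and 3.56 in the control. A typical peak of TBC1D3 or mCherry at DIV7 thus rests on 4 fragments, against 9 in the control. The lists compared below thus differ in depth and length as well as in group. With 1 library per group, depth and group cannot be told apart. List length was evened out in an alternative, and the part of depth was not tested.

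More imprinted genes had a gene-end summit in the TBC1D3 list than in the control list, while over all protein-coding genes the order was the other way. With TBC1D3, 23 of the 41 genes were occupied at an end (56.1%, 95% exact binomial interval 39.7 to 71.5, counting error only), with MICAL1-M1 15 (36.6%, 22.1 to 53.1), with mCherry at DIV7 18 (43.9%, 28.5 to 60.3) and in the control 14 (34.1%, 20.1 to 50.6). Of the 39 protein-coding members these were 21 with TBC1D3, 15 with MICAL1-M1, 18 at DIV7 and 14 in the control. Over all protein-coding genes the shares were 33.4% with TBC1D3, 38.7% with MICAL1-M1, 33.2% with mCherry at DIV7 and 42.3% in the control. The members thus stood above all genes with TBC1D3 (53.8% against 33.4%) and at DIV7 (46.2% against 33.2%), next to them with MICAL1-M1 (38.5% against 38.7%) and below them in the control (35.9% against 42.3%). The intervals of the 4 libraries overlap. When each list was cut to the size of the shortest by p, TBC1D3 occupied 12 of the 41 genes, 11 of them protein-coding (28.2% against 19.5% of all protein-coding genes), and the control 14.

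**Figure D1:**
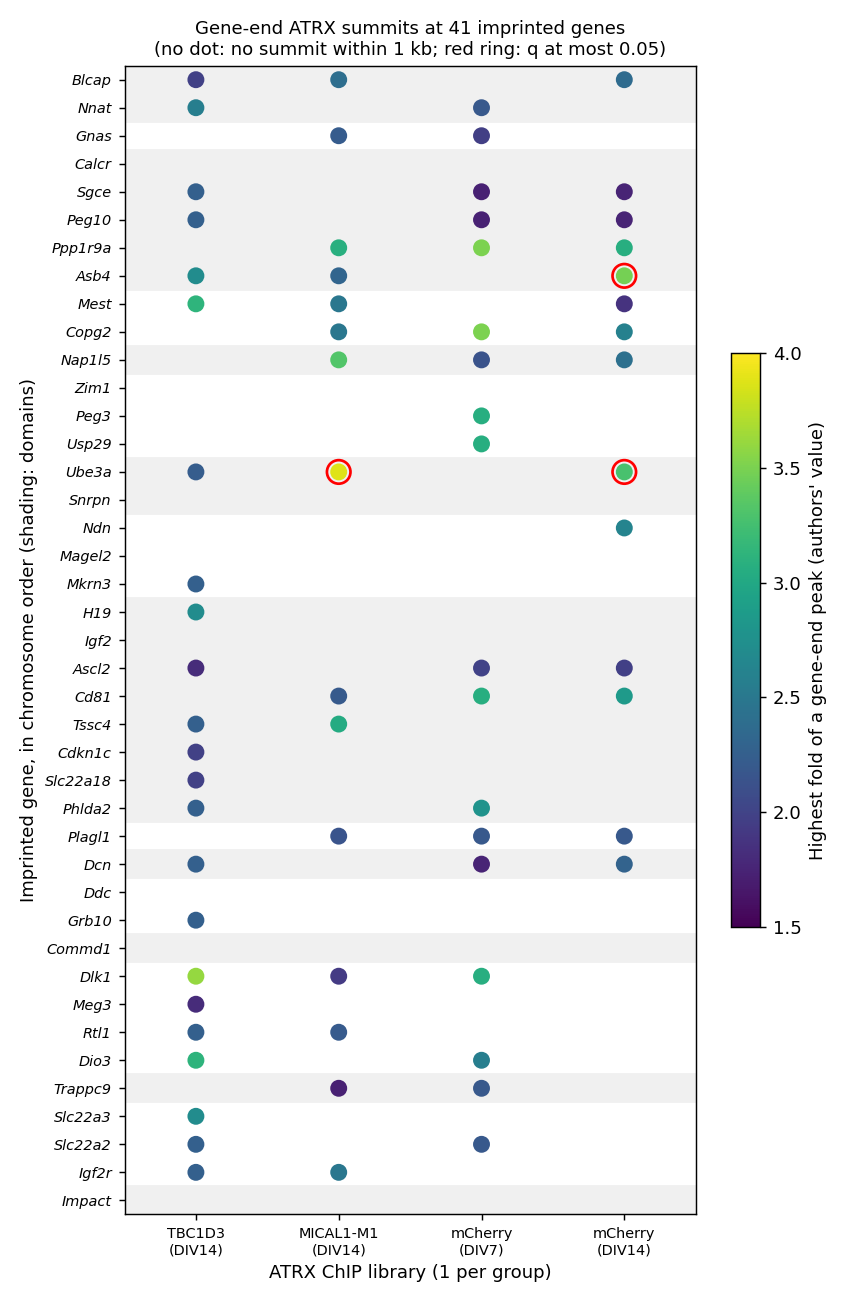
Gene-end ATRX summits at the 41 imprinted genes (rows, in chromosome order, grey and white bands mark domains) in the 4 libraries (columns). A dot marks a summit up to 1 kb from either end of the gene, its colour the highest fold in that library's own list, and a red ring a q of at most 0.05. Dots number 23 with TBC1D3, 15 with MICAL1-M1, 18 at DIV7 and 14 in the control, and rings are at Ube3a (MICAL1-M1 and control) and Asb4 (control).

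The genes concerned differed between lists. With TBC1D3, 15 members were occupied that had no gene-end summit in the control, 13 of them protein-coding (33.3%, against 15.6% of all protein-coding genes), and 6 were occupied in the control alone of the pair (15.4%, against 24.4%). With MICAL1-M1 the counts were 6 occupied beside an empty control (15.4%, against 11.6%) and 5 the other way (12.8%, against 15.2%). At DIV7 they were 9 (23.1%, against 15.7%) and 5 (12.8%, against 24.7%). The control is the same library in each pair. Of the 25 protein-coding members that the control left empty, TBC1D3 occupied 13 (52%), against 26.9% of all protein-coding genes empty in the control. MICAL1-M1 occupied 6 of them (24%, against 20.1%) and DIV7 9 (36%, against 27.1%). No member had a gene-end summit in all 4 lists, as 6.24% of protein-coding genes did. In 3 lists 14 members did (35.9% of the protein-coding members, against 16.1% of all genes), and 8 had none in any (20.5%, against 27.0%).

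**Figure D2:**
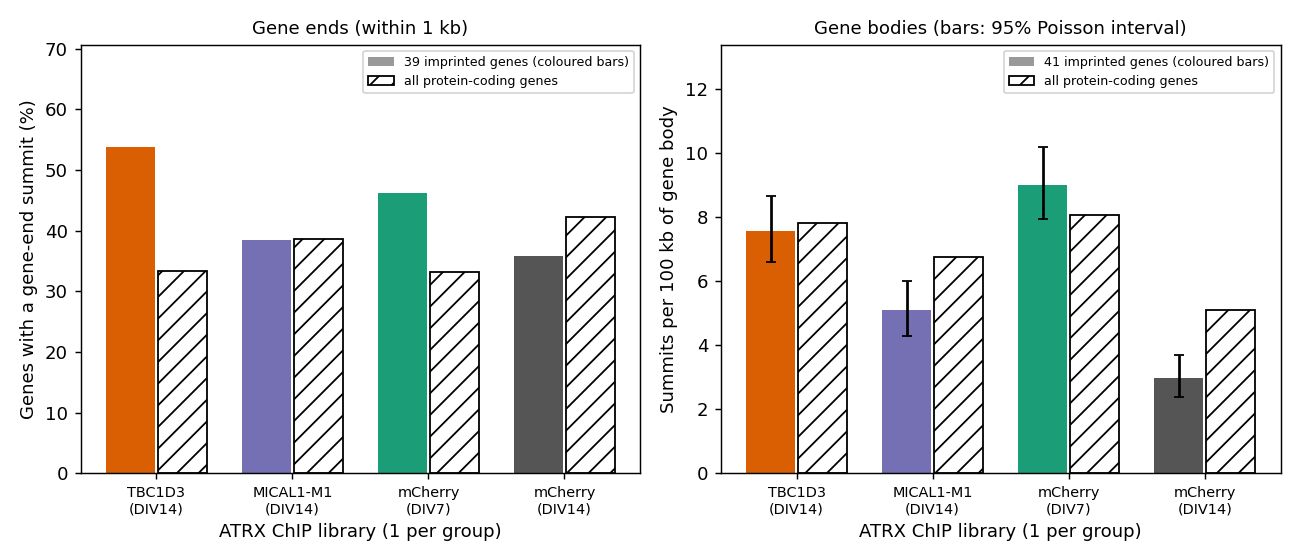
Left, share of the 39 protein-coding imprinted genes with a gene-end summit (coloured bars) and of all protein-coding genes (hatched) in each library. Right, summits per 100 kb of gene body of the 41 imprinted genes, with 95% Poisson intervals, and of all protein-coding genes. Imprinted gene bodies had 2.98 summits per 100 kb in the control, against 5.08 over all gene bodies.

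The gene-end peaks themselves were about as strong as those of other genes. Their median fold was 2.26 with TBC1D3 (26 peaks), 2.26 with MICAL1-M1 (18), 2.19 at DIV7 (19) and 2.32 in the control (16). Over all peaks at protein-coding gene ends it was 2.26 with TBC1D3, 2.35 with MICAL1-M1, 2.19 at DIV7 and 2.41 in the control. The median pileup at the summit was 4 fragments with TBC1D3, 8 with MICAL1-M1, 4 at DIV7 and 10.5 in the control, beside 4 with TBC1D3, 8 with MICAL1-M1, 4 at DIV7 and 12 in the control. A q of 1 was held by 25 of the 26 TBC1D3 peaks, 14 of 18 for MICAL1-M1, 17 of 19 at DIV7 and 6 of 16 in the control, so most of these peaks would not pass a correction for multiple testing. The share with that q over all peaks at protein-coding gene ends was 95.4% with TBC1D3 and 79.0% with MICAL1-M1. It was 95.7% at DIV7 and 30.9% in the control.

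Ube3a, which encodes an E3 ubiquitin ligase and is expressed from the maternal copy in neurons, was the only member with a gene-end peak of q at most 0.05 in 2 libraries. In MICAL1-M1 the peak spanned 59228181 to 59229469 on chromosome 7, with a 3.88-fold enrichment, 13 fragments over a background of 2.61 and a q of 0.0335. In the control it spanned 59227939 to 59229066, with 3.27-fold enrichment, 16 fragments over 4.20 and a q of 0.0235. The summits lay 366 and 342 bases before the RefSeq start, in the same overlapping region. A further MICAL1-M1 peak of 1.94-fold lay at the far end. With TBC1D3 a 2.22-fold peak of 4 fragments lay at the far end of the gene, and at DIV7 no gene-end summit was listed. A gene-end peak with a q of at most 0.05 occurred at no imprinted gene in TBC1D3 or DIV7 (0.146% and 0.228% of all protein-coding genes), at Ube3a in MICAL1-M1 (1.33% of all genes) and at Ube3a and Asb4 in the control (8.47%).

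Asb4, a maternally expressed gene for a substrate adaptor of ubiquitin ligases, had the lowest q of the gene ends. Its control peak reached 3.48-fold with 18 fragments over 4.46 (q = 0.00701) and its summit lay 84 bases before the start. A MICAL1-M1 peak of 2.31-fold overlapped the same region, with its summit 420 bases before the start. A TBC1D3 peak of 2.71-fold lay at the other end, and the DIV7 list had none. The start region shown above is poor in CG.

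Ppp1r9a, which encodes the actin-binding scaffold neurabin of dendritic spines, was occupied at its start in 3 lists, with folds of up to 3.08 in MICAL1-M1, 3.50 at DIV7 and 3.07 in the control. A single region there joined peaks of these 3 libraries (2.49-fold in MICAL1-M1, whose 3.08-fold peak lay 525 bases after the start), and TBC1D3 had no gene-end summit there. Of 61 separate regions at the gene ends of the set, only this one and the start of Dcn (decorin, a matrix proteoglycan) were called in 3 libraries. Dcn is also a fibroblast marker, and its folds were 2.26 with TBC1D3, 1.75 at DIV7 and 2.28 in the control.

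At Gnas, which makes the stimulatory G protein alpha subunit and other transcripts from several promoters with different imprints, an inner RefSeq start carried the strongest peak, while the gene ends had 2.22-fold in MICAL1-M1 and 1.97-fold at DIV7. The DIV7 peak there spanned 174328791 to 174330804 on chromosome 2, had a fold of 5.69 with 12 fragments over 1.28 and a q of 4.27e-05, and its summit lay 48 bases before the start. The other libraries had a summit near this start too: 2.26-fold at 350 bases after it with TBC1D3, 2.22-fold at 192 bases after it with MICAL1-M1, and 1.83-fold at 121 bases before it in the control, each with a q of 1. In the control 16 fragments stood over a local background of 8.28. A second start with summits in all 4 lists was that of Commd1, a gene of copper handling that is imprinted in mouse brain, with folds of 2.38 with TBC1D3, 2.10 with MICAL1-M1, 1.75 at DIV7 and 2.63 in the control. These were 2 of the 51 RefSeq starts of members (3.92%), beside 4.81% of the starts of all protein-coding genes.

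Among the 17 members expressed from the paternal copy, 8 had a gene-end summit with TBC1D3 (47.1%, against 33.4% of all protein-coding genes), 5 with MICAL1-M1 (29.4% against 38.7%), 9 at DIV7 (52.9% against 33.2%) and 6 in the control (35.3% against 42.3%). Dlk1, a Notch-related membrane protein of growth and neurogenesis, was listed at 3.61-fold with TBC1D3 (7 fragments), 1.94-fold with MICAL1-M1 and 3.07-fold at DIV7, and not in the control. The TBC1D3 and DIV7 peaks of Dlk1 overlapped at the far end of the gene, while that of MICAL1-M1 lay near the start. Peg3, a zinc finger gene of maternal care and growth, and Usp29 share a bidirectional promoter region, and a single DIV7 peak of 3.07-fold served as gene-end peak of both. Sgce (epsilon-sarcoglycan) and Peg10, which derives from a retrotransposon, likewise shared 1 peak per list, of 2.26-fold with TBC1D3, 1.73-fold at DIV7 and 1.75-fold in the control.

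Mest, a gene for a hydrolase-like protein expressed in mesoderm and brain, was occupied at its ends in TBC1D3 (3.12-fold), MICAL1-M1 (2.49-fold) and the control (1.87-fold). At its inner start, shown above, MICAL1-M1 had a 3.32-fold summit 22 bases after the start, DIV7 a 1.73-fold summit 78 bases before it and the control a 2.85-fold summit 427 bases after it. Nap1l5, an intronless gene of the nucleosome assembly family, had gene-end peaks of 3.32-fold in MICAL1-M1, 2.14-fold at DIV7 and 2.41-fold in the control. Plagl1, a zinc finger regulator of growth, was listed between 2.15 and 2.19-fold in the same 3 libraries. The gene-end summit of Ndn (necdin) was found in the control alone (2.63-fold), and that of Mkrn3 in TBC1D3 alone (2.26-fold). Nnat (neuronatin), which lies inside Blcap, was listed in TBC1D3 at 2.56-fold and at DIV7 at 2.19-fold. Rtl1, a retrotransposon-derived gene, and Dio3, the deiodinase that inactivates thyroid hormone, were each listed in 2 of the other libraries and not in the control.

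Of the 20 members expressed from the maternal copy in some tissue, 13 had a gene-end summit with TBC1D3, 8 with MICAL1-M1, 8 at DIV7 and 7 in the control. Among the 18 protein-coding ones the share was 61.1% with TBC1D3 (11 genes, against 33.4% of all protein-coding genes), 44.4% with MICAL1-M1 (38.7%), 44.4% at DIV7 (33.2%) and 38.9% in the control (42.3%). Igf2r, the receptor that clears IGF2, was listed at its start with TBC1D3 (2.26-fold, 219 bases after it) and MICAL1-M1 (2.49-fold, 112 bases after it), and not at DIV7 or in the control. Its neighbours Slc22a3 and Slc22a2, organic cation transporters imprinted in placenta, were listed with TBC1D3 at 2.70-fold and 2.26-fold, and Slc22a2 at DIV7 at 2.19-fold. H19, Cdkn1c, Slc22a18 and Meg3 had a gene-end summit with TBC1D3 alone, each with 3 to 5 fragments. H19 is the noncoding RNA across from Igf2, Cdkn1c an inhibitor of cyclin-dependent kinases, and Meg3 the noncoding RNA of the Dlk1 domain. Cd81, a tetraspanin, was listed at 2.20-fold in MICAL1-M1, 3.07-fold at DIV7 and 2.85-fold in the control, and Tssc4 at 2.26-fold with TBC1D3 and 3.03-fold with MICAL1-M1.

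Copg2, a coat protein subunit of Golgi vesicles, was listed at 2.49-fold in MICAL1-M1, 3.50-fold at DIV7 and 2.59-fold in the control, with the summits of DIV7 and the control at its start. Its MICAL1-M1 peak was the same peak as that given for Mest, and a further control peak was shared by both genes. Ascl2, a bHLH factor of trophoblast, was listed at 1.80-fold with TBC1D3, 1.99-fold at DIV7 and 1.97-fold in the control. Phlda2, which restrains placental growth, was listed with TBC1D3 (2.26-fold) and at DIV7 (2.78-fold), and Trappc9, a trafficking subunit, with MICAL1-M1 (1.73-fold) and at DIV7 (2.19-fold). Of the members with mixed or tissue-dependent imprints, Blcap was occupied at an end with TBC1D3 (1.98-fold), MICAL1-M1 (2.40-fold) and in the control (2.36-fold). Grb10, an adaptor that dampens insulin signalling, was so with TBC1D3 alone (2.26-fold at each end). Within 1 kb of an inner start of Grb10, TBC1D3 (2.26-fold) and MICAL1-M1 (up to 1.66-fold) both had summits.

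The 8 members with no gene-end summit in any list were Calcr, Zim1, Snrpn, Magel2, Igf2, Ddc, Commd1 and Impact. Their gene bodies were not all empty. Snrpn had a DIV7 summit of 2.19-fold 490 bases after an inner RefSeq start. No other library had a summit within 1 kb of a Snrpn start. Igf2, the growth factor, had body summits in all 4 lists (5 with TBC1D3, 1 with MICAL1-M1, 3 at DIV7 and 1 in the control), some near its inner starts. Calcr, the calcitonin receptor, had 2 with TBC1D3, 3 with MICAL1-M1, 7 at DIV7 and 1 in the control, and Zim1, a zinc finger gene, 2 with TBC1D3, 0 with MICAL1-M1, 2 at DIV7 and 0 in the control. Magel2, a Prader-Willi gene of hypothalamic neurons, had a single body summit, at DIV7. Impact had 0 with TBC1D3, 2 with MICAL1-M1, 3 at DIV7 and 2 in the control.

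Over gene bodies, the imprinted set carried fewer summits per length than other genes in the control and in MICAL1-M1, and about as many in the other lists. The joined spans of the members held 211 summits with TBC1D3, or 7.57 per 100 kb (95% Poisson interval 6.58 to 8.66, counting error only), against 7.80 over all protein-coding gene bodies. With MICAL1-M1 the rate was 5.09 (4.29 to 6.0) against 6.75, at DIV7 9.0 (7.92 to 10.2) against 8.07, and in the control 2.98 (2.37 to 3.69) against 5.08. Any body summit was present in 33 members with TBC1D3, 27 with MICAL1-M1, 35 at DIV7 and 25 in the control. Of the protein-coding members these were 79.5% with TBC1D3, 69.2% with MICAL1-M1, 87.2% at DIV7 and 64.1% in the control, and of all protein-coding genes 62.2% with TBC1D3, 53.7% with MICAL1-M1, 63.2% at DIV7 and 50% in the control. A longer gene has more room for a summit, which the rates per length take into account.

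Snrpn, the small ribonucleoprotein gene at the centre of the Prader-Willi region, spans 467683 bases and had 9 body summits with TBC1D3, 3 with MICAL1-M1, 26 at DIV7 and 0 in the control. Trappc9, of nearly the same length, had 50 with TBC1D3, 27 with MICAL1-M1, 58 at DIV7 and 16 in the control. Gnas was dense in every list, with 14.4 summits per 100 kb with TBC1D3, 16 with MICAL1-M1, 14.4 at DIV7 and 12.8 in the control. Usp29 had 22 body summits with TBC1D3, 14 with MICAL1-M1, 27 at DIV7 and 6 in the control and Grb10 13 with TBC1D3, 9 with MICAL1-M1, 16 at DIV7 and 5 in the control. Copg2 had 4 with TBC1D3, 6 with MICAL1-M1, 3 at DIV7 and 3 in the control. Over all gene bodies the control had 5.08 summits per 100 kb. It had 0 in Snrpn, 3.39 in Trappc9, 2.54 in Usp29, 4.68 in Grb10 and 2.01 in Copg2. The control stood above 5.08 in Gnas, in Ddc (5.95) and in Dcn (12.9). It did so too, on 1 to 4 summits each, in Impact (5.23), Igf2 (6.23), Cd81 (6.59) and Peg10 (7.57). The same held for Mest (26.7), Ndn (60.5), Ascl2 (81.9) and Nap1l5 (106), and the remaining members stood below 5.08. Ddc had 5 body summits with TBC1D3, 5 with MICAL1-M1, 8 at DIV7 and 5 in the control. Dcn had 6 with TBC1D3, 2 with MICAL1-M1, 3 at DIV7 and 5 in the control.

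Whole domains showed the same contrast on a larger scale. Together the 17 domains span 6609 kb. They held 524 summits with TBC1D3, or 7.93 per 100 kb (7.26 to 8.64), 233 with MICAL1-M1 (3.53, 3.09 to 4.01), 566 at DIV7 (8.56, 7.87 to 9.30) and 129 in the control (1.95, 1.63 to 2.32). At the rate of the rest of their own chromosomes the same spans would hold 495 summits with TBC1D3, 342 with MICAL1-M1, 548 at DIV7 and 239 in the control, so the domains stood at 1.06 times that rate with TBC1D3, 0.680 with MICAL1-M1, 1.03 at DIV7 and 0.539 in the control. With lists of equal size the ratios were 1.13 with TBC1D3, 0.699 with MICAL1-M1, 0.986 at DIV7 and 0.539 in the control. In the control 9 of the 17 domains stood at or above their chromosome's rate, and the largest shortfalls in summits were those of Calcr to Asb4, Ube3a to Snrpn, Dlk1 to Dio3, H19 to Phlda2 and Slc22a3 to Igf2r. Regions differ widely in these lists: over 5311 tiles of 500 kb the control's rate had quartiles of 1.4, 3.2 and 5.2 summits per 100 kb.

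**Figure D3:**
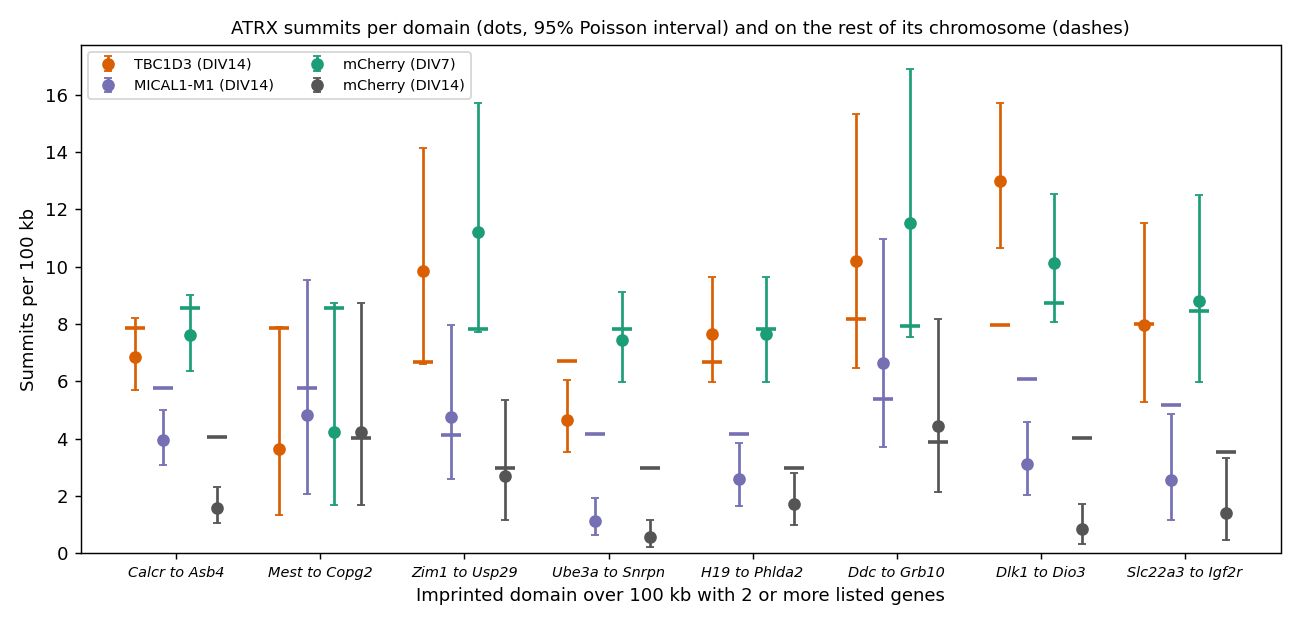
ATRX summits per 100 kb in the 8 imprinted domains over 100 kb that hold 2 or more listed genes (dots, with 95% Poisson intervals for counting error), and on the rest of the same chromosome (dashes), for each library. From Dlk1 to Dio3 the rate was 13 with TBC1D3, 3.13 with MICAL1-M1, 10.1 at DIV7 and 0.843 in the control.

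The Dlk1 to Dio3 domain on chromosome 12, from 109451485 to 110282097, had the highest TBC1D3 rate of the 8 plotted domains. It held 108 summits with TBC1D3, 26 with MICAL1-M1, 84 at DIV7 and 7 in the control, or per 100 kb 13 with TBC1D3 (10.7 to 15.7), 3.13 with MICAL1-M1 (2.04 to 4.59), 10.1 at DIV7 (8.07 to 12.5) and 0.843 in the control (0.339 to 1.74). The rest of the chromosome had 7.95 with TBC1D3, 6.08 with MICAL1-M1, 8.72 at DIV7 and 4.01 in the control. TBC1D3 thus stood above its chromosome's rate, and MICAL1-M1 and the control below theirs. The domain has 1.81 protein-coding genes per 500 kb. In the 1626 tiles of 500 kb with 1 to 2 protein-coding genes the quartiles were 6.2, 8.2 and 10 with TBC1D3. They were 3.2, 6.0 and 8.8 with MICAL1-M1. At DIV7 they were 6.8, 8.8 and 10.4, and in the control 1.4, 3.6 and 6.2. The domain lay above the upper quartile of TBC1D3, under the lower quartile of MICAL1-M1 and of the control, and between the quartiles of DIV7. No control summit lay in the bodies or at the ends of its 4 listed genes.

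**Figure D4:**
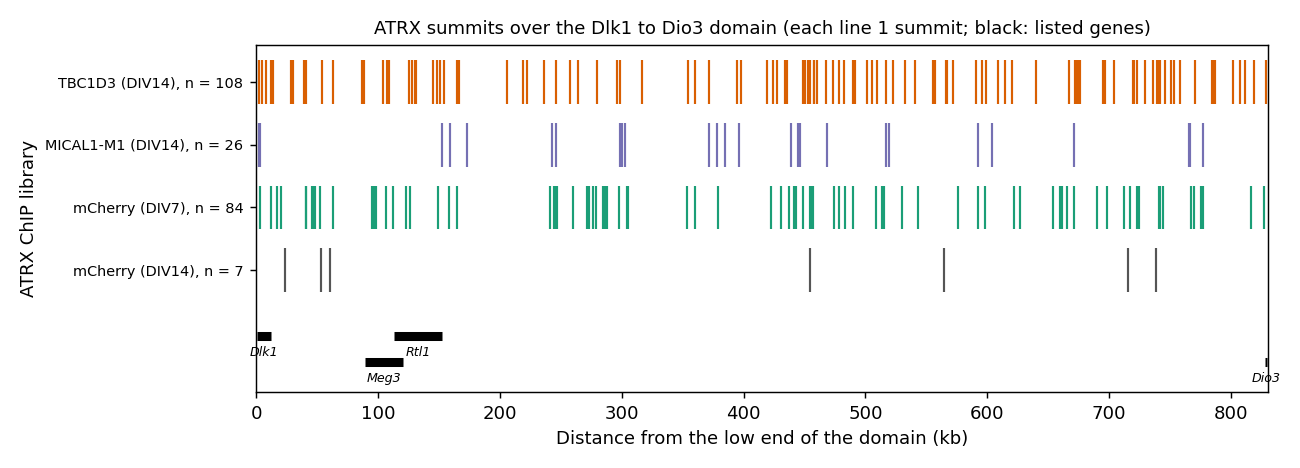
Map of the summits over the Dlk1 to Dio3 domain, each vertical line 1 summit, by library, with the listed genes in black and the distance in kb from the low end of the domain. The TBC1D3 (108) and DIV7 (84) summits spread along the whole domain, and the 7 control summits lie outside the gene bodies.

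The domain holds 58 annotated microRNA hairpins, 54 of them on the plus strand and 4 on the minus strand. Most microRNAs of this domain are known to come from its maternally expressed noncoding transcripts. A summit lay within 1 kb of 8 of them with TBC1D3 (13.8%, against 16.8% of 1005 hairpins on the assembled chromosomes), 2 with MICAL1-M1 (3.45% against 14.7%), 17 at DIV7 (29.3% against 18.1%) and 0 in the control (13.1% of all). Neighbouring hairpins share summits, so these counts rest on 5 separate summits with TBC1D3, 1 with MICAL1-M1 and 9 at DIV7. Mature sequences of 4 of those hairpins are shown with the seed, bases 2 to 8, in capitals, because neighbours in the cluster share seeds. The hairpins of miR-379 and miR-411 lay near a TBC1D3 summit and their 3p arms share a seed, and those of miR-376b and miR-376c lay near DIV7 summits and their 5p arms share a seed. The last is that of miR-675, cut from H19 on chromosome 7, whose hairpin lay within 1 kb of the TBC1D3 summit in H19.
miR-379-3p: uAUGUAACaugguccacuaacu
miR-411-3p: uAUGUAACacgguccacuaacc
miR-376b-5p: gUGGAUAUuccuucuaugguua
miR-376c-5p: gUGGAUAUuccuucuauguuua
miR-675-5p: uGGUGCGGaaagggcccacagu
The peaks concern the DNA around these hairpins and say nothing of their RNA.

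The Ube3a to Snrpn domain on chromosome 7, from 59227750 to 60451177, had the lowest ratio to its chromosome's rate of the 17 domains in the control, at 0.192, followed by Dlk1 to Dio3 at 0.210. It held 57 summits with TBC1D3 (4.66 per 100 kb, 3.53 to 6.04), 14 with MICAL1-M1 (1.14, 0.626 to 1.92), 91 at DIV7 (7.44, 5.99 to 9.13) and 7 in the control (0.572, 0.230 to 1.18), while the rest of the chromosome had 6.70 with TBC1D3, 4.17 with MICAL1-M1, 7.84 at DIV7 and 2.98 in the control. Here TBC1D3 too lay under its chromosome's rate, and DIV7 stood nearest to its own. Of the control's 7 summits, 3 lay at or in Ube3a and none in Snrpn. The separate Ndn, Magel2 and Mkrn3 cluster, 73.9 kb long, held 1 summit with TBC1D3, 0 with MICAL1-M1, 3 at DIV7 and 1 in the control; a count of 0 over that length allows up to 4.06 per 100 kb, taken as 3 counts.

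**Figure D5:**
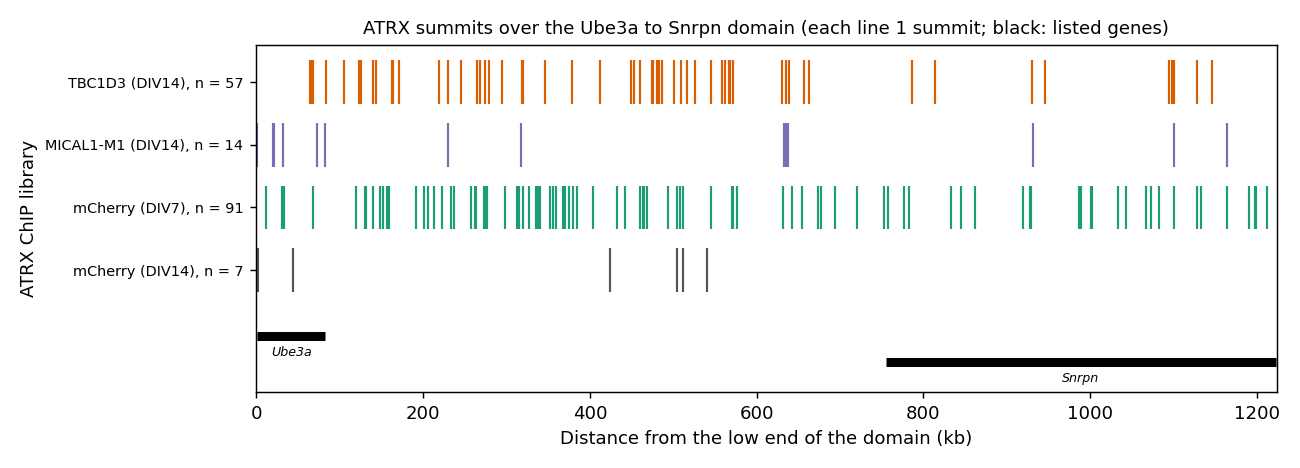
Map of the summits over the Ube3a to Snrpn domain, drawn in the same way. The span of Snrpn holds 26 DIV7 summits and none of the control.

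The H19 to Phlda2 domain, with 8 listed genes on chromosome 7, held 71 summits with TBC1D3, 24 with MICAL1-M1, 71 at DIV7 and 16 in the control. Per 100 kb these were 7.64 with TBC1D3, 2.58 with MICAL1-M1, 7.64 at DIV7 and 1.72 in the control. The rest of that chromosome had 6.67 with TBC1D3, 4.16 with MICAL1-M1, 7.83 at DIV7 and 2.97 in the control. The Calcr to Asb4 domain on chromosome 6 had rates of 6.86 with TBC1D3, 3.94 with MICAL1-M1, 7.60 at DIV7 and 1.60 in the control, and the rest of the chromosome 7.88 with TBC1D3, 5.78 with MICAL1-M1, 8.57 at DIV7 and 4.06 in the control. From Slc22a3 to Igf2r on chromosome 17 the rates were 7.96 with TBC1D3, 2.56 with MICAL1-M1, 8.81 at DIV7 and 1.42 in the control, and on the rest of the chromosome 8.01 with TBC1D3, 5.18 with MICAL1-M1, 8.46 at DIV7 and 3.55 in the control. In these 3 domains the control's and MICAL1-M1's intervals lay below the chromosome's rate. The Zim1 to Usp29 domain had 29 with TBC1D3, 14 with MICAL1-M1, 33 at DIV7 and 8 summits in the control. Ddc to Grb10 held 23 with TBC1D3, 15 with MICAL1-M1, 26 at DIV7 and 10 in the control. Mest to Copg2 held 6 with TBC1D3, 8 with MICAL1-M1, 7 at DIV7 and 7 in the control, and Blcap with Nnat 2 with TBC1D3, 1 with MICAL1-M1, 2 at DIV7 and 1 in the control. For Mest to Copg2 the libraries' intervals overlapped and the control (4.23 per 100 kb) stood at its chromosome's rate (4.03).

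Few gene-end peaks of TBC1D3 at imprinted genes were seen again elsewhere. Of its 26 peaks, 4 were overlapped by a peak of another library (15.4%), against 47.4% of its peaks at all protein-coding gene ends. For MICAL1-M1 the count was 11 of 18 (61.1% against 67.8%), for DIV7 9 of 19 (47.4% against 44.0%) and for the control 11 of 16 (68.8% against 64.9%). Of the control's 16 peaks, 2 were overlapped by TBC1D3 (25.1% over all gene ends), 7 by MICAL1-M1 (51.5%) and 4 by DIV7 (23.7%). Of the 61 gene-end regions, 46 were called in 1 library, 13 in 2 and 2 in 3. The regions called in both MICAL1-M1 and the control included those of Ube3a, Asb4, Cd81, Blcap, Plagl1 and Nap1l5.

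RefSeq promoter sequence was found for 33 of the 41 genes, with 51 starts. A start had a summit within 1 kb in 12 of the 33 genes with TBC1D3 (36.4%, against 27.1% of 17492 protein-coding genes with such an entry), in 14 with MICAL1-M1 (42.4% against 38.6%), in 15 at DIV7 (45.5% against 27.1%) and in 13 in the control (39.4% against 43.8%). The promoters of the 25 starts covered by a peak in any list had a median of 18 CG, and the 26 others 9.5. For all protein-coding starts with a summit the median was 20 CG in TBC1D3, 22 in MICAL1-M1, 19 at DIV7 and 22 in the control, and for starts without one 10 with TBC1D3, 6 with MICAL1-M1, 10 at DIV7 and 5 in the control. Occupied imprinted starts had medians of 14 with TBC1D3, 17 with MICAL1-M1, 17.5 at DIV7 and 20.5 in the control. The hexamer TGCCGC, searched on both strands, was present in 14 of the 51 starts (27.5%) and in 14.1% of all such promoters. It was in 6 of the 25 covered starts and 8 of the 26 others.

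A further 43 imprinted genes of the same domains and others were looked up, and 42 were found, 37 of them protein-coding. Gene-end summits were present at 17 with TBC1D3, 19 with MICAL1-M1, 12 at DIV7 and 14 in the control. Of the protein-coding ones the shares were 37.8% with TBC1D3, 40.5% with MICAL1-M1, 29.7% at DIV7 and 35.1% in the control, beside 33.4% with TBC1D3, 38.7% with MICAL1-M1, 33.2% at DIV7 and 42.3% in the control for all protein-coding genes. With TBC1D3 these genes stood less far above all genes than the 41 did, and at DIV7 they stood below them; the difference between the gene lists was not tested.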

How the data were processed

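Peaks of ATRX ChIP-seq in 4 libraries of mouse neurons, 1 per group, were used, and the input DNA sample was not itself read here. Chromatin came from an enzymatic kit and was sequenced from both ends, with input DNA as background, per the labels' protocols. The tools named in the submitters' processing notes are ChIPseeker 1.26.2, MACS 1.4.2, SAMtools 1.9 and Bowtie 1.3.0; what each did, and the genome build, is not given in the sources used here. In the deposited narrowPeak files the score is the -log10 p-value times 10 without its decimals, the fold is a ratio over a local background, and 2 columns hold the -log10 of the p-value and the q-value. Folds are the authors' and were read within a list.

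Genes came from RefSeq GRCm38.p6, whose spans lack exons. Python 3.11.15, pandas 2.3.3 and SciPy 1.17.1 assigned summits and gave intervals, a procedure tested on simulated data. Whole pileups matched fold and p within 0.001 in log10 p for at least 99.9864% of peaks. Depth in reads is unknown. In the lists of equal size, peaks tied in p at the limit were drawn at random (57591 tied peaks in TBC1D3, of which 35247 were kept). By rule, members with a q of at most 0.05, those occupied in all or no libraries and the 10 highest folds were named; the other members, tiles, motifs, start-side comparison and grouping by parental copy were added after values were seen. The members and lists were chosen with earlier results of these data known. With 1 library per group, no test was run between conditions.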

Additional observations from a re-analysis of the deposited data

How the results depend on the processing

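With 1 library per group no replicate could be left out. No paired analysis was possible because each group has 1 library. Thresholds moved the counts most. At a q of at most 0.05, gene-end members numbered 0 with TBC1D3, 1 with MICAL1-M1, 0 at DIV7 and 2 in the control, body members 1 with TBC1D3, 0 with MICAL1-M1, 2 at DIV7 and 1 in the control, and domain summits 0.0454 per 100 kb with TBC1D3, 0.0151 with MICAL1-M1, 0.0454 at DIV7 and 0.0757 in the control. No share of all genes was taken for the body counts at this q. At a p of at most 0.01 gene-end members numbered 9 at DIV7, 23.1% of the protein-coding members against 15.2% of all protein-coding genes. Domain rates were then 5.55 with TBC1D3, 1.89 with MICAL1-M1, 2.95 at DIV7 and 1.23 in the control. Of 8 DIV7 gene-end peaks, 4 were overlapped by another library. With lists of equal size gene-end members numbered 12 with TBC1D3 and 10 at DIV7. The protein-coding ones among them were 28.2% and 25.6% of the protein-coding members, against 19.5% and 18.2% of all protein-coding genes. Domain rates were 4.12 with TBC1D3, 2.48 with MICAL1-M1 and 3.69 at DIV7. The control's list is the shortest and kept its 1.95. A window of 500 bp gave 14 gene-end members with TBC1D3 and 9 with MICAL1-M1, 35.9% and 23.1% of the protein-coding members against 20.4% and 26.8% of all protein-coding genes, and one of 3 kb gave 35 with TBC1D3 and 32 at DIV7, 84.6% and 79.5% of the protein-coding members against 57.7% and 59.3% of all protein-coding genes. Counting starts alone gave 12 of 33 with TBC1D3; this setting was chosen after seeing the data. With an overlap over at least 50% of the peak, 2 TBC1D3, 7 MICAL1-M1 and 5 control peaks were overlapped. No share over all gene-end peaks was taken for these overlap counts or for that at a p of at most 0.01. Each of these settings changes the number of peaks or bases that can count, so a changed count alone is no result about the members. The control's ratio of domain to chromosome rate was 0.500 at a p of at most 0.01, MICAL1-M1's 0.652, TBC1D3's 1.11 and DIV7's 1.03. With 4 fragments at a typical TBC1D3 or DIV7 summit, depth limits what a single gene can show.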

Other observations

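In the domains, 12 peaks had a q of at most 0.05, and 8 of them lay away from the gene ends and the Gnas start described above. Inside Ppp1r9a, TBC1D3 and DIV7 each had such a peak, with summits 21094 and 21184 bases from its low end, and with 63 fragments over a local background of 15.6 (3.86-fold) with TBC1D3 and 43 over 11 (3.67-fold) at DIV7, both backgrounds far above the usual 1.22 and 1.28. Snhg14, the long noncoding transcript that runs from the Snrpn side across Ube3a, held such a peak in TBC1D3 (4.35-fold, 10 fragments), at DIV7 (3.33-fold, 20 fragments over 5.30) and in the control (2.09-fold, 41 fragments over 19.1), at 3 different places. Trappc9 had a control peak of 2196 bases within its body (3.32-fold, q = 0.0289). In the H19 to Phlda2 domain the control had a peak of 3.51-fold in Tspan32, and between Rtl1 and Dio3 TBC1D3 had a peak of 4.51-fold with 9 fragments, its summit in no annotated gene. These peaks were picked out after their values were seen, and whether they lie in repeated sequence was not tested.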
